A study of Mus musculus with 16 samples.

Results

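The 9 genes described here are regulators, receptors and cytokines that define group 1 and group 3 innate lymphoid cells (ILC1 and ILC3), measured in cells sorted as group 2 innate lymphoid cells (ILC2). They were chosen by name, as Tbx21, Eomes, Ifng, Il12rb2, Ncr1, Il23r, Il1r1, Il17a and Il22, and all 9 were found among 53465 genes in the count table. The cells came from the duodenum of untreated, specific pathogen free C57BL/6 mice aged 6 to 10 weeks, and RNA was sequenced in 16 libraries, 4 for each of 4 genotypes. Every mouse was homozygous for the smart13 reporter allele at Il13 (Il13 smart13/smart13). Wild type (WT) mice carried that allele alone, and Alox5 KO mice carried it with Alox5 (-/-), which removes 5-lipoxygenase of the leukotriene pathway. Il25 KO mice were Il25 (-/-) and St2 KO mice were St2 (-/-), which removes the receptor of IL-33. Both of these genotypes were also homozygous for the Yarg reporter allele at Arg1, which WT and Alox5 KO mice did not carry. The deletions are written as (-/-) with no tissue-specific driver named, so cells other than ILC2 lack the genes too. The sort gate and the number of mice per library are not given in the labels, so each p-value measures the spread between these libraries, which may be technical.

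ILC1 depend on the transcription factor T-bet (Tbx21) and make interferon gamma (Ifng) in answer to IL-12, and the related natural killer (NK) cells also use Eomes. ILC3 sense IL-23 and IL-1, and make IL-22 and IL-17A. ILC2 depend on GATA3, and ILC2 of several tissues can take up features of the other groups when they are exposed to IL-12, IL-1 or IL-23. A gut ILC2 sort can therefore hold such transcripts from its own cells or from a few ILC1, ILC3, NK or T cells, and in bulk RNA a small number of cells and little RNA per cell cannot be told apart.

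The bases upstream of the genes are shown because T-box factors and GATA factors have known DNA words. In RefSeq promoters on GRCm38.p6, the 250 bases before 1 start of each gene were searched on both strands. The T-box word was TCACACC and the GATA word AGATAA. Ncr1 and Il1r1 had 2 listed starts each, and only the first was searched. The shares over all promoters count every listed start. All 9 genes had a promoter entry. The T-box word was in 0 of the 9, against 3.33% of 32851 promoters of the same length. The GATA word was in 1 of the 9, that of Il22, against 9.99%. The stretches of the 3 genes found in every library are printed with that of Il22, 5′ to 3′ on the strand of the gene, and capitals mark the GATA word.
Tbx21: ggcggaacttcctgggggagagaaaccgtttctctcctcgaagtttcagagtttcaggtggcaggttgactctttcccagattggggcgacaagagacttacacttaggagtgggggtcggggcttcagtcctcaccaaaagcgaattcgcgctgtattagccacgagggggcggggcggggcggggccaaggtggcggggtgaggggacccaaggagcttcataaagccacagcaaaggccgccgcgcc
Ncr1: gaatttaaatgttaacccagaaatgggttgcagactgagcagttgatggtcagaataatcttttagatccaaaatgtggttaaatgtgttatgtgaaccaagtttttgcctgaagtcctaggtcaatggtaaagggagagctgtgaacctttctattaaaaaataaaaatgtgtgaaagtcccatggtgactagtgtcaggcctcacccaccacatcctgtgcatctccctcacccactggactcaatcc
Ifng: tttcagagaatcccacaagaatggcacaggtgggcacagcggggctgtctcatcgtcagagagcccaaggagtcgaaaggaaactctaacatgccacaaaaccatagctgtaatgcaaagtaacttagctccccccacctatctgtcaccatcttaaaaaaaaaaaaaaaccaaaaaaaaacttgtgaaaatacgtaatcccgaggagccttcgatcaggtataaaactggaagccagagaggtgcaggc
Il22: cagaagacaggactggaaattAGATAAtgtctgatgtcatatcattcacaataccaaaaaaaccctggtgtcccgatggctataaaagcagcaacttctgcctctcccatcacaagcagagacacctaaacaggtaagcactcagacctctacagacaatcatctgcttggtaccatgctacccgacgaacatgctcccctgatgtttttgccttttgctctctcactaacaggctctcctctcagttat
They lie at chr11:97115332-97115581 (Tbx21, minus strand), chr7:4337465-4337714 (Ncr1, plus), chr10:118440796-118441045 (Ifng, plus) and chr10:118204714-118204963 (Il22, plus). The GATA word started 229 bases before the RefSeq start of Il22, which lies inside the GENCODE gene model used for the positions given with the levels. A match is a description of letters, and none of these files measures binding there.

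Levels of the 9 genes were below those of most ILC2 genes. Scaled to the library total as counts per 1000000 (CPM) and per kilobase of exon, so that genes can be compared, Ncr1 was the highest of the 9 at a mean level of 16.6 ± 8.25 (SD, n = 16). Tbx21 followed at 5.56 ± 4.04 and Ifng at 4.48 ± 3.52. Il22 stood at 2.50 ± 8.19 and Il17a at 0.678 ± 1.52 on the same scale. Il23r (0.199), Il1r1 (0.0894), Il12rb2 (0.0677) and Eomes (0.0152) were lowest. Apart from Ncr1 against Tbx21, each step in that order was smaller than the larger of the SDs of the neighbours, and the step from Ncr1 to Tbx21 was larger than both SDs. On the same length-scaled level, Gata3, the ILC2 regulator, reached 150.8, Klrg1 336 and Il17rb, a subunit of the IL-25 receptor, 252. On the same per-length scale, the ILC2 genes Bcl11b (14.1), Thy1 (7.05) and Il13 (5.87) lay under Ncr1, and Ptgdr2 had no count in any library.

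**Figure D1:**
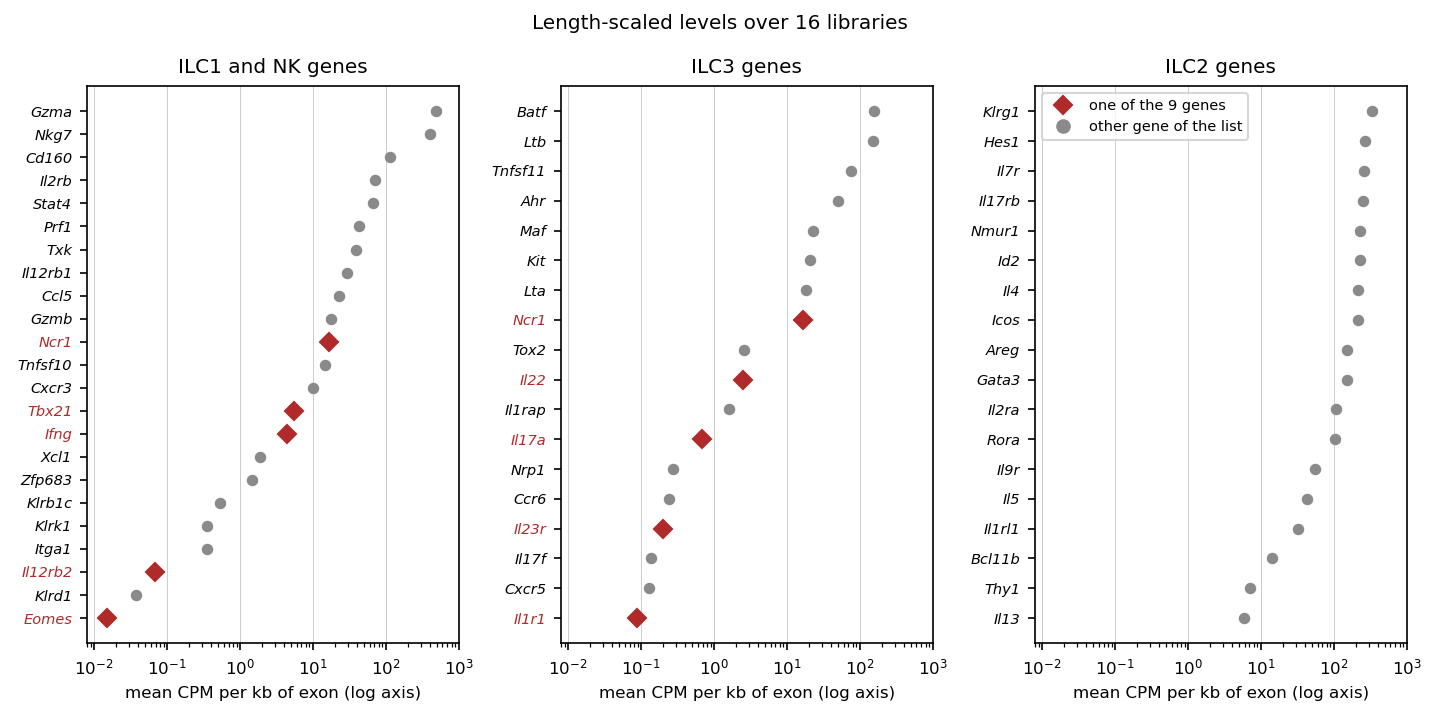
Mean level of each gene over 16 libraries in CPM per kilobase of exon (log axis), for the ILC1 and NK, ILC3 and ILC2 gene lists, with Ncr1 standing in both of the first lists and Ptgdr2, at 0 in all libraries, left out. The 9 genes (red diamonds) sit between 0.0152 for Eomes and 16.6 for Ncr1, while Gata3 sits at 150.8 and other genes of the ILC1 and ILC3 lists, such as Gzma and Batf, are above all 9.

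The 9 genes fell into those found in every library and those found in a few. Tbx21 (612 counts in all), Ifng (251) and Ncr1 (1106) had counts in 16 of 16 libraries. Il1r1 had counts in 7 libraries, Il22 in 6, Il17a in 5, Il12rb2 in 4, Il23r in 3 and Eomes in 2. Total gene counts ran from 2086864 to 3216937 per library, so that 1 count was worth 0.311 to 0.479 CPM and a count of 0 allows up to 3 counts, or 0.933 to 1.44 CPM. Intervals of this kind cover counting error only.

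Of the regulators, Tbx21 (chromosome 11, 97098071 to 97115331, GRCm38) encodes T-bet. Its level in the WT libraries 1 to 4 was 13.9, 9.25, 9.03 and 1.63 CPM. The Alox5 KO libraries had 12.7, 10.0, 21.0 and 0.479 CPM, and the Il25 KO libraries had 5.76, 4.40, 23.6 and 16.9 CPM. The St2 KO libraries had 35.4, 31.1, 7.67 and 18.2 CPM. The highest 2 of all 16 libraries were St2 KO libraries, but the St2 KO values overlapped those of each other genotype. Mean levels were 8.46 ± 5.07 CPM in WT, 11.1 ± 8.47 in Alox5 KO, 12.7 ± 9.20 in Il25 KO and 23.1 ± 12.6 in St2 KO (SD, n = 4 each). Within a genotype, the highest library of Tbx21 was several times the lowest in each of the 4 genotypes, and in Alox5 KO the lowest rested on 1 count.

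Eomes, the T-box factor of NK cells (chromosome 9, 118478212 to 118486132), had 3 counts in the whole series. WT 2 had 1 and St2 KO 2 had 2, and it was at 0 in every Alox5 KO and Il25 KO library. Over the 4 Il25 KO libraries, 0 of 10740093 counts allows up to 0.279 CPM.

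Of the receptors, Ncr1 (chromosome 7, 4337724 to 4345164) encodes NKp46, an activating receptor of NK cells, ILC1 and part of the ILC3. Its level was 13.9, 32.4, 18.1 and 26.1 CPM in WT and 47.0, 22.03, 13.5 and 7.67 CPM in Alox5 KO. It was 23.8, 3.30, 23.6 and 33.8 CPM in Il25 KO and 28.7, 28.3, 40.5 and 46.4 CPM in St2 KO. The 4 St2 KO libraries lay in the upper part of the range, and the highest single value was that of Alox5 KO 1. Means were 22.6 ± 8.26 CPM in WT, 22.5 ± 17.3 in Alox5 KO, 21.1 ± 12.8 in Il25 KO and 35.99 ± 9.001 in St2 KO (SD, n = 4 each). The 16 values formed 1 range in which every genotype overlapped every other.

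Il12rb2 (chromosome 6, 67291318 to 67376188) encodes the signalling subunit of the IL-12 receptor. It had 11 counts: 2 in WT 1, 3 in Alox5 KO 4, 5 in St2 KO 2 and 1 in St2 KO 4. Its partner Il12rb1, which IL-12 and IL-23 receptors share, stood at 89.7 to 155.7 CPM across all 16 libraries, and Stat4, the factor that IL-12 signals through, stood at 216.3 to 305.2 CPM. The shared subunit and the downstream factor were thus present in every library, and the subunit specific to IL-12 was at 0 in 12. Of the 50-base stretches of the Il12rb2 transcripts, 38.0% also occur in other genes, Serbp1 above all, so that the counting may have lost reads there.

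Il23r (chromosome 6, 67422932 to 67491855), the subunit specific to the IL-23 receptor, lies 46.7 kb from Il12rb2. It had 15 counts in Alox5 KO 2 (5.80 CPM), 5 in Il25 KO 1 (1.80 CPM), 1 in St2 KO 2 (0.311 CPM) and 0 in the other 13 libraries, all 4 WT libraries included. The WT libraries together held 10286896 counts, and 0 of them allows up to 0.292 CPM. Il1r1 (chromosome 1, 40225080 to 40317257), the IL-1 receptor, had 10 counts in WT 2, 2 in WT 4, 3 in Alox5 KO 2, 6 in Il25 KO 1, and 1 each in Il25 KO 3, Il25 KO 4 and St2 KO 1. It lies 112.3 kb from Il1rl1, the gene of ST2, in the same receptor cluster. Its co-receptor Il1rap was found in all libraries at 9.86 to 28.7 CPM. For IL-1, as for IL-12 and IL-23, the widely used subunit thus had counts in every library. The specific ones, Il1r1, Il12rb2 and Il23r, had counts in 7, 4 and 3 libraries.

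Of the cytokines, Ifng (chromosome 10, 118441046 to 118445892) encodes interferon gamma. WT libraries had 7.34, 8.10, 0.753 and 2.45 CPM, and Alox5 KO libraries had 1.19, 18.5, 0.397 and 1.92 CPM. Il25 KO libraries had 5.76, 7.70, 6.92 and 6.47 CPM, and St2 KO libraries had 10.8, 5.28, 2.92 and 6.19 CPM. Il25 KO held the narrowest range, and Alox5 KO 2 alone, with 48 counts, set the top of the Alox5 KO range. Mean levels were 4.66 ± 3.61 CPM in WT, 5.51 ± 8.71 in Alox5 KO, 6.71 ± 0.814 in Il25 KO and 6.30 ± 3.30 in St2 KO (SD, n = 4 each), and without its library 2 the Alox5 KO mean was 1.17 CPM. Of its 50-base stretches, 19.9% also occur in the gene model Gm49751, not analysed here.

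**Figure D2:**
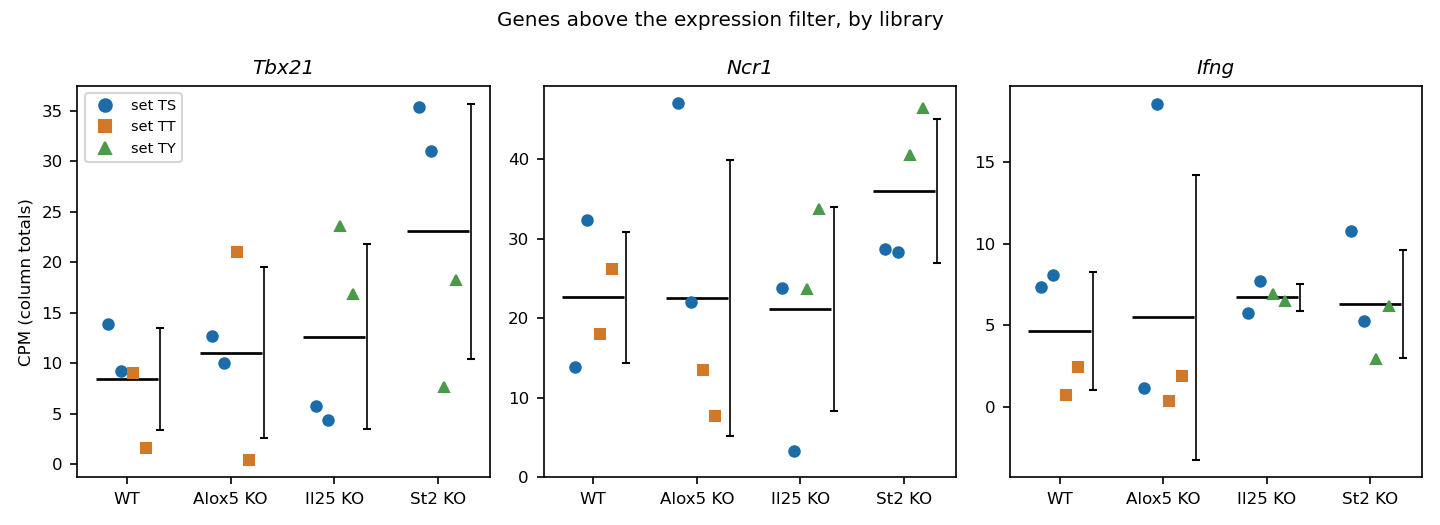
CPM of Tbx21, Ncr1 and Ifng in each library by genotype, with the mean (line) and SD (bar beside the points, n = 4), coloured by the letters of the sample code. Each genotype overlaps each other one: St2 KO averages 23.1 CPM of Tbx21 against 8.46 in WT, and Ifng in Alox5 KO rests on 1 library at 18.5 CPM.

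Il22 (chromosome 10, 118204942 to 118210047) encodes the cytokine by which ILC3 act on the epithelium. It had 95 counts in WT 2 (36.6 CPM), 10 in Alox5 KO 2 (3.86 CPM), 4 in WT 4, 3 in Alox5 KO 4, and 1 each in Alox5 KO 3 and Il25 KO 3. It was at 0 in all 4 St2 KO libraries, where 0 of 11826492 counts allows up to 0.254 CPM, and in 10 libraries altogether. A single library, WT 2, thus held 83.3% of all Il22 counts, against a median share of 17.5% in the top library for genes with 50 to 199 counts. Of the 50-base stretches of Il22, 41.0% also occur in its neighbour copy Iltifb, which was at 0 in every library. Reads that fit both copies cannot be assigned to either, so the Il22 count may be too low.

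Il17a (chromosome 1, 20730905 to 20734496), the cytokine of IL-17-making ILC3 and T cells, had 8 counts in WT 3 (3.01 CPM), 16 in WT 4 (6.54 CPM), 7 in St2 KO 4 (2.41 CPM) and 1 each in Alox5 KO 2 and Il25 KO 2. The 2 WT libraries with Il17a were not the one with the most Il22. Il17f, its close relative, had 11 counts in Il25 KO 2 and 1 in Il25 KO 1, and was at 0 in the other 14 libraries. No genotype had counts of Il22, Il17a or Il17f in all 4 of its libraries.

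**Figure D3:**
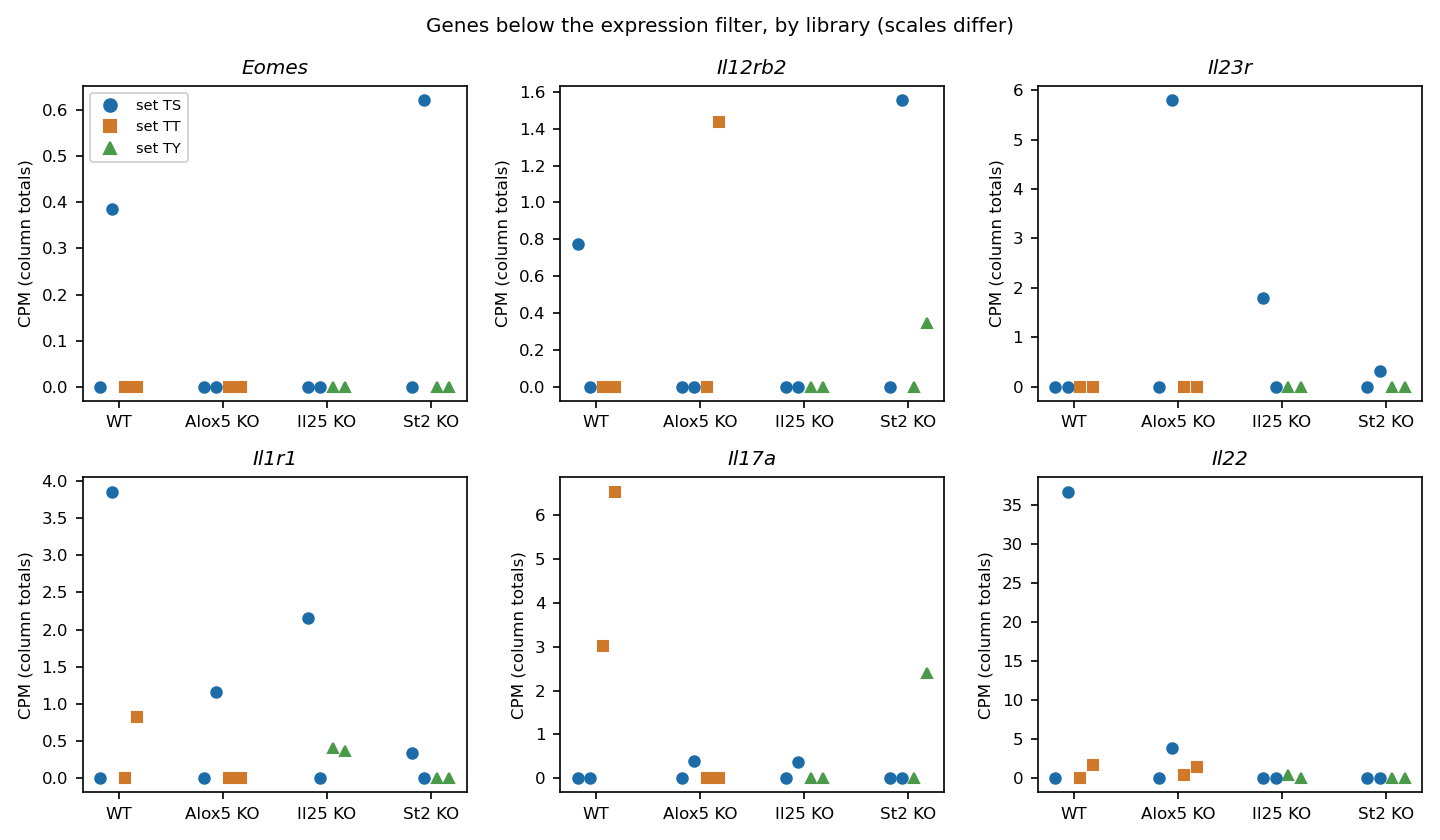
CPM by library of the 6 genes found in few libraries (each panel has its own axis, colours as the letters of the sample code). Most points lie at 0, and single libraries stand above: WT 2 at 36.6 CPM for Il22, Alox5 KO 2 at 5.80 CPM for Il23r and WT 4 at 6.54 CPM for Il17a.

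Single libraries carried several of these genes at once. Alox5 KO 2 held 71.4% of the Il23r counts, the highest Ifng level and the second highest Il22 level, and it also held 20 of 23 counts of Ccr6, a chemokine receptor of lymphoid tissue inducer-like ILC3. Gzmb, a cytotoxic granule protease, stood at 96.2 CPM there and between 0 and 118.9 CPM over all libraries. WT 2 held most of the Il22 counts, 41.7% of the Il1r1 counts and 56 of 107 counts of Klrk1, the NK receptor NKG2D. Ccr6, Gzmb and Klrk1 were picked out after their values were seen. Among all genes with 10 to 49 counts, the range of Il23r, Il1r1 and Ccr6, the top library held a median of 28.6% of the counts, and 17.96% of those genes had at least 50% of them in 1 library. Among genes with 50 to 199 counts, the range of Il22 and Klrk1, the median was 17.5%, and 2.51% of the genes had at least 50% in 1 library, so concentration like that of Il22 and Klrk1 was uncommon.

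Expression was tested with edgeR's quasi-likelihood test on the counts, with genotype and the letter pair of the sample code (TS, TT or TY) as terms and Benjamini-Hochberg adjustment over 11742 genes at 0.05. Libraries 1 and 2 of every genotype are TS. Libraries 3 and 4 are TT in the WT and Alox5 KO genotypes, and TY in the Il25 KO and St2 KO genotypes. Of the 9 genes, 3 passed the filter on low counts (Tbx21, Ncr1 and Ifng) and 6 did not, so the other 6 are described by their counts. None of the 3 was called in any of the 4 comparisons, 0 of 3 had an unadjusted p under 0.05, and in 0 of 3 did the 2 groups of 4 libraries fail to overlap. Over all genes tested, 0.102% were called in Alox5 KO against WT, 0.417% in Il25 KO against WT, 0.298% in St2 KO against WT and 1.24% where Il25 KO was set against St2 KO. The share with an unadjusted p under 0.05 was 7.17%, 9.3%, 7.49% and 11.3%, and the share without overlap was 3.84%, 6.78%, 8.47% and 5.95%, in the same order. At such rates a count of 0 of 3 is near the background.

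In Alox5 KO against WT, which asks what the lack of leukotrienes changes, the 3 genes differed by less than their error. The edgeR log2 fold change of Tbx21 was 0.43 ± 0.714 (SE, adjusted p = 0.908), with a 95% interval from -1.07 to 1.93. Ifng had 0.26 ± 0.612 (edgeR adjusted p = 0.943), and it was -1.75 without Alox5 KO 2 alone. Ncr1 had 0.00 ± 0.417 (edgeR adjusted p = 0.999), made of 0.57 within TS and -0.995 within TT. The difference between these Ncr1 values was 1.57 ± 0.847 on the log2 scale (edgeR adjusted p = 0.99997), so the sets were not shown to differ.

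In Il25 KO against WT, Ncr1 had the lowest fold change of the 3 at -0.86 ± 0.501 (SE, edgeR adjusted p = 0.645), with an interval from -1.91 to 0.19. Without the sample code term the same contrast was -0.06, and the mean levels of 21.1 and 22.6 CPM differed little. Tbx21 had 0.47 ± 0.792 (edgeR adjusted p = 0.926) and was -1.15 when only the TS libraries were compared. Ifng had -0.06 ± 0.641 (edgeR adjusted p = 0.992). WT and Il25 KO have only the TS libraries in common, so in this comparison and in St2 KO against WT the set term is tied to 2 libraries a genotype, and the Yarg allele and the genotype cannot be told apart. By the sex-linked genes given below, the WT mice were male and the TY mice of Il25 KO and St2 KO female. Sex was thus uneven in both comparisons.

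In St2 KO against WT, Tbx21 had the largest fold change of the 3 genes, 1.33 ± 0.697 (SE, edgeR adjusted p = 0.706, unadjusted p = 0.0720). Its 95% interval ran from -0.13 to 2.80, so that neither no change nor a rise of several fold was outside it. Within TS, the 2 St2 KO libraries (35.4 and 31.1 CPM) lay above the 2 WT libraries (13.9 and 9.25 CPM), with a log2 fold change of 1.49 in a fit of the 8 TS libraries alone (edgeR adjusted p = 0.367). Ncr1 had -0.13 ± 0.461 (edgeR adjusted p = 0.966) although its mean was higher in St2 KO, 35.99 against 22.6 CPM, and without the sample code term the value was 0.65. Its direction thus turned on how the sets were handled. Ifng had -0.19 ± 0.630 (edgeR adjusted p = 0.965).

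In Il25 KO against St2 KO, the genotypes that share the Yarg allele and both sets, none of the 3 passed the test. Tbx21 had -0.86 ± 0.533 (SE, edgeR adjusted p = 0.602), but the sets went opposite ways. Within TS it was 5.76 and 4.40 CPM in Il25 KO against 35.4 and 31.1 CPM in St2 KO, a log2 fold change of -2.64 (edgeR adjusted p = 0.141). Within TY it was 23.6 and 16.9 CPM against 7.67 and 18.2 CPM, a log2 fold change of 0.65 (edgeR adjusted p = 0.895). The difference between the sets was -3.30 ± 0.927 (edgeR adjusted p = 0.909), and 0 of 11742 genes passed that test. In a fit of the 8 TS libraries alone, Tbx21 was called (edgeR adjusted p = 0.0478), the only setting in which any of the 3 was. Xist, the X inactivation RNA, was at 982 to 1682 counts in TY and at most 7 elsewhere. The Y-linked gene Ddx3y was at most 2 in TY and at least 709 elsewhere, so the TY mice were female and the other mice male. Whether sex or another property of the sets bears on Tbx21 was not tested.

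In the same comparison Ncr1 had a log2 fold change of -0.73 ± 0.367 (SE, edgeR adjusted p = 0.479), with an interval from -1.50 to 0.04. Here both sets had the same sign, at -1.01 within TS and -0.55 within TY. Ifng had 0.13 ± 0.514 (edgeR adjusted p = 0.962), with -0.19 within TS and 0.57 within TY. Grouped by sample code, Ifng was at 0.397 to 2.45 CPM in the 4 TT libraries, 2.92 to 6.92 in TY and 1.19 to 18.5 in TS. The TT libraries thus lay below all of TY. TT holds only WT and Alox5 KO, and TY only Il25 KO and St2 KO. Set, sex, genotype and the Yarg allele therefore cannot be told apart between TT and TY.

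**Figure D4:**
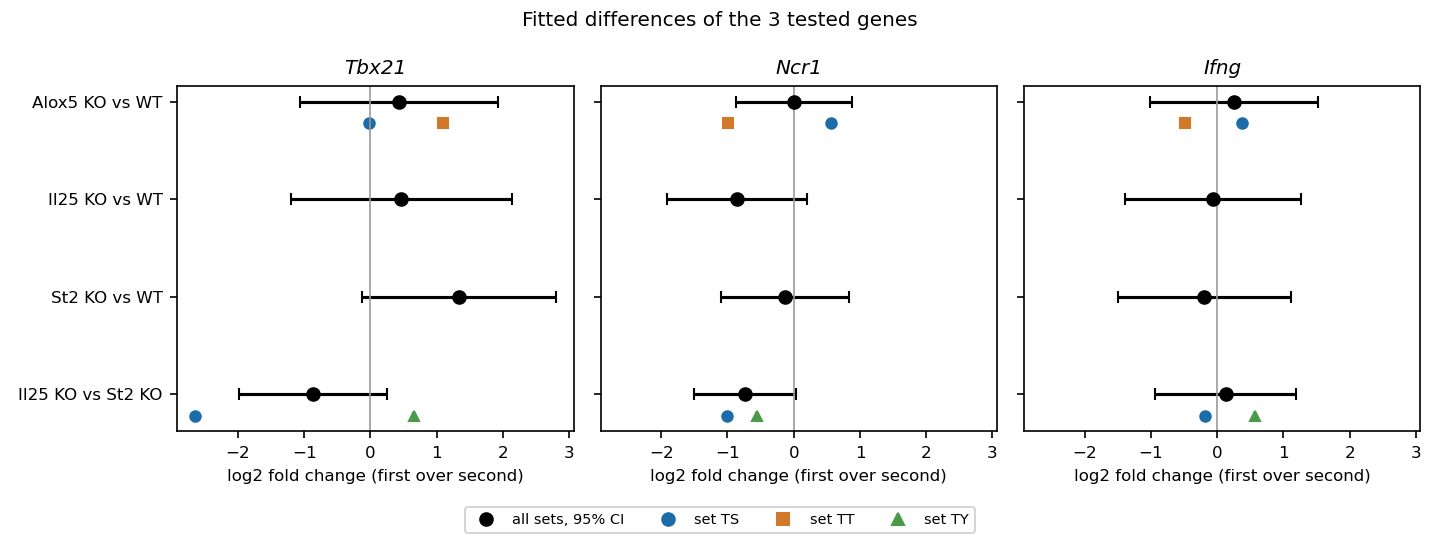
Log2 fold changes of Tbx21, Ncr1 and Ifng in 4 comparisons (first genotype over second), from all 16 libraries with 95% intervals (black), and within single sets where both genotypes have libraries in at least 2 of them (coloured, no interval drawn). Every interval spans 0, and Tbx21 in Il25 KO against St2 KO is -2.64 within TS and 0.65 within TY.

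The other genes of these programmes were described from lists of names. Of 23 ILC1 and NK genes, 16 were tested and 0 were called in each of the 4 comparisons. Their median log2 fold change was 0.16 in Alox5 KO against WT, -0.04 in Il25 KO against WT, -0.17 in St2 KO against WT and 0.12 where Il25 KO was set against St2 KO, beside 0.01, 0.00, 0.01 and -0.01 over all genes tested. Much of this list was carried by genes found at high levels in every library, such as Gzma, a granule protease (282.4 to 716.4 CPM), Txk, a kinase (307.2 to 509.2 CPM), and Nkg7, a granule protein (303.7 to 450.4 CPM). Of the 16 tested, 7 in Il25 KO against WT had a fold change above 0 and 9 below. An unadjusted edgeR p under 0.05 was found for 5, beside 9.3% of all genes tested, and none passed the adjusted threshold. Above 0 were Il2rb, the shared IL-2 and IL-15 receptor subunit (381.9 against 222.0 CPM, log2 fold change 0.70, edgeR adjusted p = 0.251), Prf1, which encodes perforin (150.7 against 92.7 CPM, 0.78, edgeR adjusted p = 0.185), and Txk (0.24, edgeR adjusted p = 0.513). Below 0 were Tnfsf10, which encodes the death ligand TRAIL (54.6 against 93.7 CPM, -0.83, edgeR adjusted p = 0.163), and the chemokine gene Ccl5 (18.7 against 29.5 CPM, -1.48, edgeR adjusted p = 0.263). The libraries of Il2rb, Prf1 and Tnfsf10 did not overlap between these genotypes, as was so for 6.78% of all genes tested. The 5 were picked out after their values were seen. In St2 KO against WT, log2 fold changes were 0.50 for Il2rb, 0.11 for Prf1, -0.12 for Txk, -0.31 for Tnfsf10 and -1.35 for Ccl5. None of these was called. Il2rb, Prf1, Tnfsf10 and Ccl5 had the same sign in both comparisons and Txk did not, but both comparisons use the same WT libraries. The fold changes are fitted with the sample code term, and mean Ccl5 was 20.6 CPM in St2 KO. Whether the Yarg allele bears on these genes was not tested.

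Of 18 ILC3 genes, 10 were tested and 0 were called in each of the 4 comparisons. Their medians on the log2 scale were 0.01, -0.25, -0.11 and -0.26 in the same order. Batf, a factor of cytokine-making lymphocytes, Ltb, the lymphotoxin subunit, Ahr, the aryl hydrocarbon receptor, and Kit, the stem cell factor receptor, were at 124.3 CPM or more in every library. The list thus held genes of the ILC3 state that gut ILC2 libraries contained throughout. Beside them stood receptor and cytokine genes, such as Il23r and Il22, that had counts in few libraries.

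The signalling genes around the receptors were tested too. Of 19 genes of the IL-12 and interferon gamma pathway, 17 were tested, and 1 call was made in the 4 comparisons. It was Irf1, an interferon-induced transcription factor, which was higher in Il25 KO than in St2 KO at 460.8 against 312.2 CPM, a log2 fold change of 0.61 ± 0.0986 (edgeR adjusted p = 0.0019). Without the TT and TY libraries its adjusted p was 0.270 (log2 fold change 0.47). Il18rap and Il18r1, the subunits of the IL-18 receptor, lie near Il1rl1 and are tested neighbours of the gene deleted in St2 KO. Il18rap had -1.13 ± 0.311 (edgeR adjusted p = 0.237) and Il18r1 had 0.88 ± 0.357 (edgeR adjusted p = 0.594) in St2 KO against WT on the log2 scale. Map4k4, also nearby, had 0.32 ± 0.160 (edgeR adjusted p = 0.693). Of 20 genes of the IL-23, IL-1 and IL-17 pathway, 14 were tested and 0 were called in each comparison. Cxcr3, a chemokine receptor gene that T-bet is known to switch on, was found in all 16 libraries at 3.83 to 31.6 CPM. Its means were 17.03 ± 8.90 CPM in WT, 12.2 ± 8.44 in Alox5 KO, 16.04 ± 10.9 in Il25 KO and 24.2 ± 6.42 in St2 KO (SD, n = 4 each). It had a log2 fold change of 0.01 in St2 KO against WT (edgeR adjusted p = 0.998) and was picked out after its values were seen.

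The genes whose level followed each tested gene most closely over the 16 libraries were, by Pearson's r of log2 CPM, Tmco6 (0.86), 2310058D17Rik (0.85) and Bloc1s4 (0.85) for Tbx21. They were Srprb (0.82), Sgtb (0.81) and Ctnnbl1 (0.80) for Ifng and Plekhm3 (0.87), B4galt7 (0.87) and Hvcn1 (0.84) for Ncr1. These are the highest of 11742 values each, over points that share libraries, sets and depth, and no gene of the ILC1 or ILC3 lists was among them.

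The labelled cell type was held against its markers and those of other cells. Of 19 ILC2 genes, 18 were found, with a summed level of 7525 to 9787 CPM per library, and Ptgdr2 was at 0 in all. T cell markers summed to 549.6 to 834.7 CPM, with 620.5 to 675.5 for WT, 590.4 to 834.7 for Alox5 KO, 558.1 to 708.7 for Il25 KO and 549.6 to 649.9 for St2 KO. Of the 14, Cd8b1 was at 0 throughout, and Cd8a had 17 counts and Cd4 9 counts in the whole series, while the CD3 genes Cd3g, Cd3e and Cd3d had 4000, 769 and 279. Themis had 1336 counts, Cd6 1088, Trdc 460 and Trac 262, each with counts in all 16 libraries. Foxp3 had 325 counts in 15 libraries (up to 21.6 CPM), and Cd5 had 21 in 10. Most of the sum came from the T cell receptor constant genes Trbc1 (212.9 to 329.2 CPM) and Trbc2 (159.3 to 229.5 CPM) and from Cd3g (54.4 to 147.6 CPM), each found in all 16 libraries. NK cell markers summed to 664.6 to 713.0 CPM in WT, 656.4 to 844.8 in Alox5 KO, 483.5 to 745.8 in Il25 KO and 416.0 to 595.4 in St2 KO. Of the 9, the receptors Klra4, Klra7 and Klra8 and the factor S1pr5 were at 0 in all libraries and Eomes had 3 counts, so the sum came from genes such as Gzma. B and plasma cell markers summed to 145.3 to 990.3 CPM and were lowest in Alox5 KO 1, Alox5 KO 2 and St2 KO 1, and without those 3 libraries none of the 3 genes was called either. The part of carried-over cells in the levels of the 9 genes was not tested.

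Among those marker lists, Derl3, of plasma cells, and Prg2, of eosinophils, were lower in Alox5 KO than in WT, with log2 fold changes of -4.07 (edgeR adjusted p = 0.00369) and -4.74 (edgeR adjusted p = 0.0372). Cpa3, the other tested gene of the mast cell and eosinophil list, went the other way (7.54 against 3.02 CPM, 1.32, edgeR adjusted p = 0.715). Mcpt1, Ms4a2 and Epx of that list were at 0 in every library. Cd79b, of B cells, was lower in Il25 KO than in WT (-1.07, edgeR adjusted p = 0.0019) and than in St2 KO (-0.61, edgeR adjusted p = 0.0229). Of the 6 tested B and plasma cell markers, 5 were below 0 in Alox5 KO against WT (median log2 fold change -1.42) and 4 in Il25 KO against WT (median -0.64). In St2 KO against WT all 6 were below 0 (median -1.35), none of them called. Where Il25 KO was set against St2 KO, the 5 other than Cd79b were above 0, none of them called. The median of the 6 was 0.67. With 1 library left out, the Derl3 call was lost without Alox5 KO 3 or 4 (edgeR adjusted p = 0.0790 and 0.0506), and the Prg2 call without St2 KO 2 or any WT or Alox5 KO library (0.0569 to 0.219). The Cd79b call against St2 KO was lost without Il25 KO 1, 3 or 4 or St2 KO 2 or 4 (0.0570 to 0.143). The deleted genes were checked as far as the counts allow. Alox5 averaged 96.2 CPM in the WT libraries and was lower, at 9.84 CPM, in those of Alox5 KO (log2 fold change -3.28, edgeR adjusted p = 0.000411). Il25 was at 0 in every library, and Il1rl1, counted over all its exons, was at 172.9 CPM in St2 KO against 215.5 in WT, so neither checks its label.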

How the data were processed

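The authors deposited raw counts per gene for 16 libraries in 1 table, not scaled for depth or length. The submitters' processing notes name FastQC 0.11.3, Picard 1.134, HTSeq 0.4.1 and STAR 2.4.2a with build GRCm38. The settings, annotation release and any duplicate removal are not given in the sources used here. Per the labels' protocols, libraries were made with Nextera XT, which does not mark strand. Of 53471 rows, 6 with a repeated identifier were dropped, and rows without a symbol held 0.184% of counts. CPM used column totals, and length-scaled levels used GENCODE M21 exons.

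Counts were tested with edgeR 4.0.16 (R 4.3.3), with TMM scaling, the default filter over genotypes, robust quasi-likelihood fits and 10 residual degrees of freedom. The step was also run on simulated counts of the genes that passed the filter. These counts held no set effect, so that run does not test how the sets were handled. Alternatives were other scalings, DESeq2 1.42.0, no filter, the legacy mode, other terms and subsets, and each library left out. Named genes were the 9, called members of each list, those of highest CPM or at 0, and for each of the 9 with at least 5 CPM the 3 most alike. The members and lists were chosen with earlier results of these data known. Of the listed genes, 1 is not reported here. Replicate numbers were not read as pairs: correlations of same-numbered libraries ran from -0.0788 to 0.197, which does not exclude pairing.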

Additional observations from a re-analysis of the deposited data

Results flagged for a closer look

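In 15 of the 36 groups of 4 libraries (9 genes in 4 genotypes), 1 library lay farther from the other 3 than Dixon's critical value for 4 values allows. Only the 31 groups with any spread could be flagged, as the rest were at 0 in all 4 libraries. Chance flags about 1 in 20 groups of measured values. A group with 3 libraries at 0 meets the rule whatever the count of the fourth, which was so in 13 of the 15.

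The other 2 were Ifng in Alox5 KO 2, at 18.5 CPM (48 counts), and Il22 in WT 2, at 36.6 CPM (95 counts). Among the 13, Il23r stood at 5.80 CPM in Alox5 KO 2 (15 counts), 1.80 CPM in Il25 KO 1 (5 counts) and 0.311 CPM in St2 KO 2 (1 count). Il17a stood at 2.41 CPM in St2 KO 4 (7 counts), 0.386 CPM in Alox5 KO 2 and 0.367 CPM in Il25 KO 2 (1 count each). Il12rb2 stood at 0.773 CPM in WT 1 (2 counts) and 1.44 CPM in Alox5 KO 4 (3 counts). Il1r1 stood at 1.16 CPM in Alox5 KO 2 (3 counts) and 0.337 CPM in St2 KO 1 (1 count). Il22 stood at 0.407 CPM in Il25 KO 3 (1 count), and Eomes at 0.386 CPM in WT 2 (1 count) and 0.622 CPM in St2 KO 2 (2 counts). Alox5 KO 2 appears in 4 of the 15, for Ifng, Il23r, Il17a and Il1r1.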

How the results depend on the processing

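None of the 3 tested genes was called in any comparison under the other scalings, DESeq2, no filter, the legacy mode, no sample code term, the replicate block, the 2 genotypes alone, or with 1 or 3 libraries left out. The exception was the fit of the TS libraries alone, where 1 of the 9 genes was called in Il25 KO against St2 KO (Tbx21). Over all genes, calls numbered 12 in Alox5 KO against WT (3 to 52 under other settings), 49 in Il25 KO against WT (9 to 95), 35 in St2 KO against WT (21 to 67) and 146 in Il25 KO against St2 KO (33 to 246). With 1 library left out they ran from 6 to 20, 31 to 53, 19 to 45 and 80 to 168. Directions of uncalled values turned as follows on the log2 scale, and the cause was not tested. In Alox5 KO against WT, Ncr1 was -0.00081 with DESeq2-style size factors, -0.0051 with column totals, -0.21 with DESeq2, -0.0092 without the filter, -0.18 in the legacy mode, -0.0056 from the 2 genotypes alone, -0.99 without Alox5 KO 1, Alox5 KO 2 and St2 KO 1 and -0.995 within TT. Tbx21 was -0.022 in TS alone and -0.023 within TS, and Ifng was -0.49 without those 3 libraries and within TT. In Il25 KO against WT, Tbx21 was -1.15 in TS alone and from the 2 genotypes alone, and Ifng was 0.55 without the sample code term. In St2 KO against WT, Ifng was 0.43 without that term, 0.018 in TS alone and 0.014 from the 2 genotypes, and Ncr1 was 0.65, 0.28 and 0.27 in the same settings and 0.11 without the 3 libraries. In Il25 KO against St2 KO, Ifng was -0.19 in TS alone and within TS, and Tbx21 was 0.65 within TY. The within-set model was chosen after seeing the data.

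Leaving out 1 library at a time gave -0.33 to 0.76 for Tbx21 in Alox5 KO against WT, -1.75 to 1.04 for Ifng and -0.53 to 0.23 for Ncr1. In Il25 KO against WT it gave -0.21 to 0.18 for Ifng, and in Il25 KO against St2 KO -0.061 to 0.51. In St2 KO against WT it gave -0.72 to 0.060 for Ifng and -0.59 to 0.038 for Ncr1. Tbx21 in St2 KO against WT kept its sign, from 0.88 to 1.74. The number of the 9 genes with a mean of at least 5 CPM was 3, and 2 to 3 with 1 library left out (2 without Alox5 KO 2, which brings Ifng under it).

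With the replicate number as a block, 0 of the 9 genes was called in the 4 comparisons, and Ncr1 in Alox5 KO against WT was -0.0094. All genes called numbered 21, 41, 35 and 139, and 7 of 16 libraries correlated best with their own number. The numbers are not read as pairs, but these values do not exclude pairing.

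With no filter, 25978 genes were tested and 0 of the 9 was called. The lowest unadjusted p-values of edgeR were then 0.00701 and 0.0116 for Il22 in St2 KO and Il25 KO against WT (adjusted p = 0.738 and 0.560; WT 2 holds most of these counts) and 0.0278 for Il17a in Alox5 KO against WT (adjusted p = 0.982). Outside the 9, Irf1 was called in all 26 alternatives but TS alone. Of 26 alternatives each, calls were lost in 4 for Derl3, 13 for Prg2, 2 for Cd79b in Il25 KO against WT and 9 for Cd79b in Il25 KO against St2 KO. For the 6 genes under the filter, the size of a detectable difference was not worked out. The uncalled log2 fold changes of Il22 without the filter were -9.49 in St2 KO and -7.91 in Il25 KO against WT.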
